A study of Mus musculus with 12 samples.

Results

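The comparison described here is that of oxaliplatin added to a low dose of interferon γ in cells of the Myc-CaP line, an established line from a mouse prostate tumour that carries a Myc transgene. Oxaliplatin (Oxali) is a platinum drug that crosslinks DNA, and it was given at 2 μM for 48 h. The members of the comparison, chosen by sample title, are 4 of the 12 RNA-seq libraries of the series: Combo200 (Oxali plus IFNγ at 200 pg, replicates 2 and 3) and IFN200 (IFNγ at 200 pg alone, replicates 1 and 2). The other 8 libraries are untreated cells (Ctrl), Oxali alone, IFNγ at 2000 pg (IFN2000) and that dose with Oxali (Combo2000), with 2 libraries in each group. Both arms of the comparison therefore held IFNγ, and Oxali was the difference between them. All groups were 48 h cultures of the one line. One label conflicts with the titles: the agent named for the IFN200 libraries is Oxali, and the agents of the other single treatments are also exchanged, whereas those of the Combo and Ctrl libraries match their titles. Titles were followed, and if the agent labels were right the comparison would be one of IFNγ added to Oxali. By title, Gbp2, an IFNγ target, stood at 1.00 and 0.912 CPM in Ctrl, 3.30 and 2.25 CPM in IFN200, 30.6 and 30.8 CPM in IFN2000 and 3.36 and 2.86 CPM in Oxali. Ifngr2, a chain of the IFNγ receptor, stood at 1.34 and 0.912 CPM in Ctrl, 1.3 and 0.751 CPM in IFN200, 0.985 and 0.893 CPM in IFN2000 and 4.88 and 4.44 CPM in Oxali.

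The deposited values were read counts per gene. The 4 libraries held 21982445 to 24971915 counts and the whole series 18749975 to 25931516, and 13177 of 55216 genes passed a filter on low counts. CPM below are counts scaled to a common library total with TMM factors, and 3 counts, the most that a count of 0 allows, corresponded to 0.116 to 0.133 CPM in these 4 libraries; this limit and the count intervals below cover counting error only. Adjusted p-values are from edgeR's quasi-likelihood test over all genes tested, a gene was called under 0.05, and since no label says that replicates were separate cultures, they measure only the spread between these libraries. A principal component analysis of the 4 libraries put 89.7% of the variance on an axis with Combo200 at one end and IFN200 at the other. The line's markers were partly as the name of a prostate epithelial cell would have them. Myc stood at 129 and 132 CPM in IFN200 and 140.2 and 146 CPM in Combo200, and Krt8, a luminal keratin, at 18.7 and 18.6 CPM in IFN200 and 21.8 and 21.8 CPM in Combo200. Epcam and Cdh1, defining epithelial adhesion genes, had no count and at most 4 counts in any of the 4 libraries, respectively. In bulk RNA, fewer cells of a type and less RNA per cell cannot be told apart.

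As background, NF-κB is a family of dimeric transcription factors held in the cytoplasm by inhibitors of the IκB type; the Relb and Nfkb2 arm is released by the kinase Map3k14. IFNγ binds a receptor of Ifngr1 and Ifngr2 chains, the kinases Jak1 and Jak2 activate STAT factors, and these bind GAS elements and induce Irf1, which then binds ISRE elements and drives class I antigen presentation. Ddit3 encodes CHOP, a transcription factor of the integrated stress response, in which Atf4 otherwise induces amino acid synthesis and transport genes.

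All 3 markers of the comparison rose when Oxali was added. Ddit3 stood at 4.56 and 4.68 CPM in IFN200 and 19.4 and 18.3 CPM in Combo200, a 4.08-fold difference and a log2 change of 2.03 (SE 0.11, adjusted p = 4.7e-12). Nfkb2 (GRCm38 chromosome 19, 46304320 to 46312385), which encodes the p100 precursor of p52, stood at 45.7 and 44.0 CPM in IFN200 and 195 and 192 CPM in Combo200. Its log2 fold change was 2.11 (SE 0.045, adjusted p = 4.5e-18), or 4.32-fold. Irf1 (chromosome 11, 53770014 to 53778374) stood at 47.1 and 42.9 CPM in IFN200 and 258 and 254 CPM in Combo200, a log2 change of 2.51 (SE 0.046, adjusted p = 6.1e-19), or 5.68-fold. For each of the 3, both Combo200 libraries lay above both IFN200 libraries, and the partners lay close to each other beside the gap between the groups. Without IFNγ, Ddit3 stood at 4.56 and 4.86 CPM in Ctrl and 17.1 and 18.4 CPM in Oxali, Nfkb2 at 46.3 and 46.9 CPM in Ctrl and 183 and 184 CPM in Oxali and Irf1 at 38.6 and 37.0 CPM in Ctrl and 96.3 and 94.1 CPM in Oxali. For Ddit3 the Combo200 and Oxali libraries thus overlapped. For Nfkb2 and Irf1 both Combo200 libraries lay above both Oxali libraries, by a margin that was small for Nfkb2 beside its rise with Oxali.

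**Figure D1:**
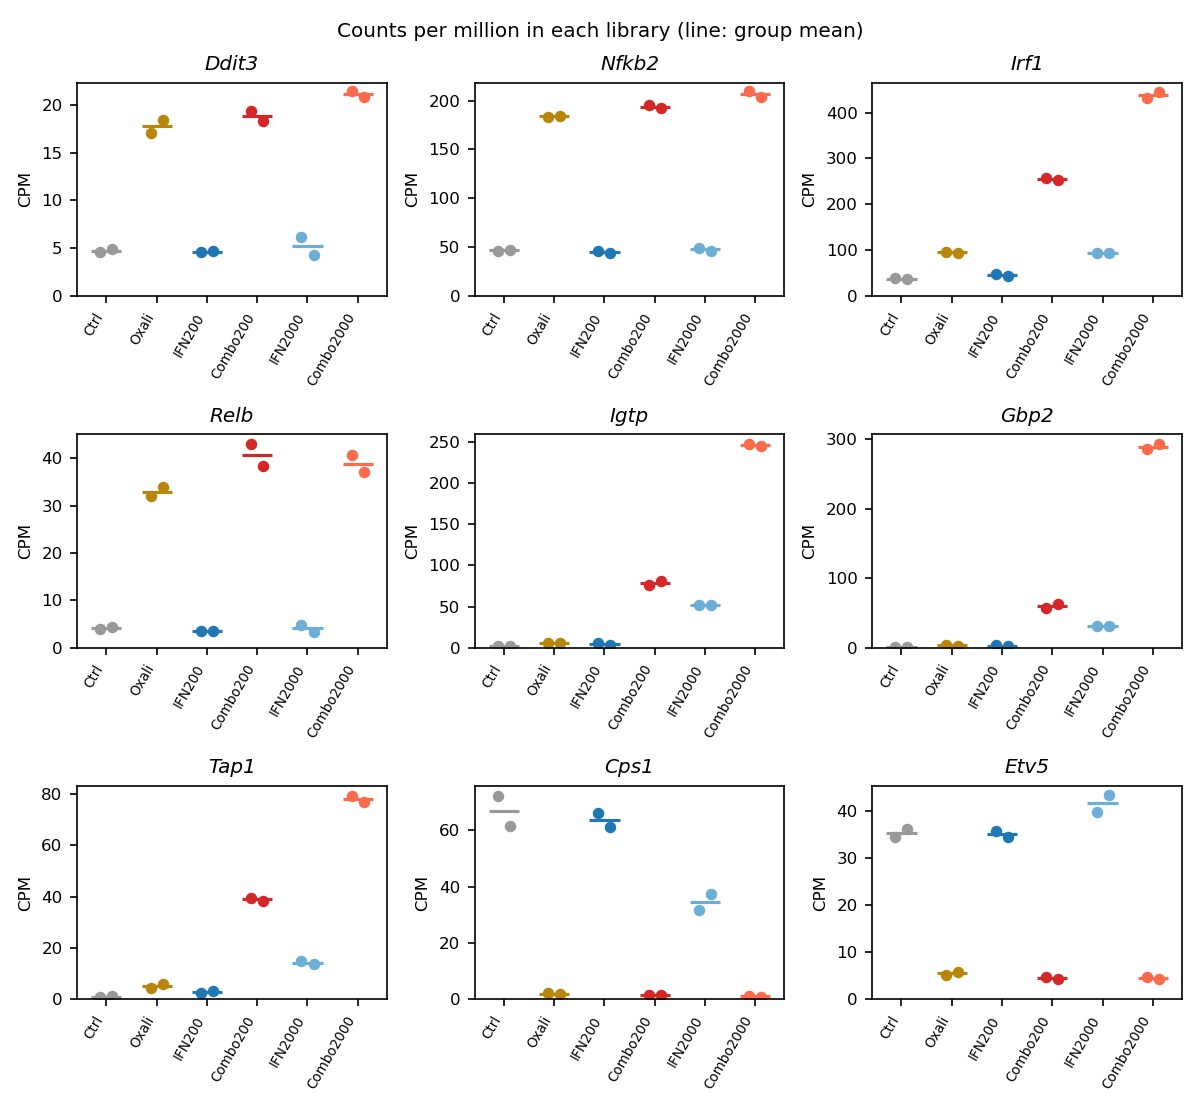
CPM (linear axis) of 9 genes in each of the 12 libraries, one panel per gene, with the groups along the horizontal axis, a point per library and a line at the group mean. Ddit3, Nfkb2 and Relb sit at similar levels in the 3 groups with Oxali, Irf1, Igtp, Gbp2 and Tap1 are highest in Combo2000 and next in Combo200, and Cps1 and Etv5 are low wherever Oxali was given.

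The start regions of the markers and of strongly changed genes are shown to place the motifs of these factors beside the values. Each line gives the 250 bases before the transcription start in RefSeq (GRCm38.p6), 5′ to 3′ on the gene's strand, with matches of the GAS letters TTCNNNGAA, the ISRE core (GAAA, any 2 bases, GAAA), the AP-1 letters TGANTCA and the NF-κB consensus, on either strand, in capitals. The letters CACGTG (E-box) and TGATGNAAT (CHOP-ATF4) were searched too, as was the p53 consensus by name, and none of these had a match in the windows shown, while CCAAT (NF-Y) was counted but not capitalised.
Ddit3, chr10:127290543-127290792, + strand: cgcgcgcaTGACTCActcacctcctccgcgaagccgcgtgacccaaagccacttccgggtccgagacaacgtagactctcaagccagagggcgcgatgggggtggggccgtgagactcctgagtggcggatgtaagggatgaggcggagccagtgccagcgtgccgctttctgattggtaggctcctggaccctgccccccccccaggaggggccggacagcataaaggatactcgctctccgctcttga
Nfkb2, chr19:46304487-46304736, + strand: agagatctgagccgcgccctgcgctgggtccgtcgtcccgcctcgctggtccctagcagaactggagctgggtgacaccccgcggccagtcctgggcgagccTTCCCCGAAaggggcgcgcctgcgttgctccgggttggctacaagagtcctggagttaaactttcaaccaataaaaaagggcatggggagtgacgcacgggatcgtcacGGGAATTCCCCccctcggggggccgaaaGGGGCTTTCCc
Irf1, chr11:53769764-53770013, + strand: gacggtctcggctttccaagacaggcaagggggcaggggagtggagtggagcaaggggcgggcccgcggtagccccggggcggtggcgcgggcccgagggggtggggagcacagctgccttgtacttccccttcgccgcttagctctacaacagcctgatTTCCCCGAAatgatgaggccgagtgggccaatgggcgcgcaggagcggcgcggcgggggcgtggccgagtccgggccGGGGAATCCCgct
Apol9a, chr15:77411081-77411330, - strand: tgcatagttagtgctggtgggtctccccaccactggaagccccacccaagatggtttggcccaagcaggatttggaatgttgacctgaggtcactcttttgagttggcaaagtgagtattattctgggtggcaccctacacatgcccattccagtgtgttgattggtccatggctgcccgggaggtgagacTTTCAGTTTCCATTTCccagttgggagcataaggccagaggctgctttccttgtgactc
Gbp5, chr3:142496684-142496933, + strand: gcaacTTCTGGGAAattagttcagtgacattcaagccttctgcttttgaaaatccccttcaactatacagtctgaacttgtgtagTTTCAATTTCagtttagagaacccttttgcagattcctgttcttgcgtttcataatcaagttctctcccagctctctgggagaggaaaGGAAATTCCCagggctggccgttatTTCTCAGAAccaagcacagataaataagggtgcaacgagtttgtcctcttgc
Etv5, chr16:22439571-22439820, - strand: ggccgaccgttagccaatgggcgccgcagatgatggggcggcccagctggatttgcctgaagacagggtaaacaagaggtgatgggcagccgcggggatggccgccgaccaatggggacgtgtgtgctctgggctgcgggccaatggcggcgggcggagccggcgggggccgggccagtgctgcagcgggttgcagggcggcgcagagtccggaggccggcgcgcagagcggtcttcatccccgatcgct
In the Nfkb2 window the GAS match began 148 bases before the start and NF-κB matches began at 39, 38 and 11, the first 2 overlapping. In the Irf1 window a GAS match began 90 bases and an NF-κB match 13 bases before the start. Gbp5, a guanylate-binding protein gene, held all 3 kinds, with GAS at 245 and 52, ISRE at 165 and NF-κB at 77. Apol9a held 2 overlapping ISRE matches at 59 and 53, Ddit3 a single AP-1 match at 242, and the Etv5 window none of these. A match is a run of letters and not a measured site.

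Over windows that also took in the 50 bases after the start, the ISRE core was found in 3.01% of the 9596 tested genes with a promoter, in 6.49% of the 1078 genes called at least 2-fold higher and in 1.65% of the 243 called at least 2-fold lower. It was found in 3.49% of all 27025 promoters in the table. The NF-κB consensus was found in 5.09%, 7.24% and 4.94% of the same 3 sets of tested genes, and in 4.35% of all promoters. For GAS the shares were 7.1%, 9.09% and 6.58%, against 8.47% of all promoters, and for AP-1 they were 5.01%, 8.91% and 7.41%, against 7.93%. The E-box letters went the other way, with 10.4% of tested genes, 6.31% of those higher and 10.7% of those lower, and 7.24% of all promoters. The CHOP-ATF4 letters were in 0.417%, 0.464% and 1.65%, and in 0.969% of all promoters, CCAAT in 39.9%, 39.6% and 40.7%, and in 37.9% of all promoters, and the p53 consensus in 0.0111% of all promoters and in none of the tested genes. These shares are descriptions with no test.

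Adding Oxali to IFN200 changed most of the measured transcriptome. Of 13177 genes, 9217 (69.9%) were called, 4804 (36.5%) higher and 4413 (33.5%) lower, and these shares are the background for every count of members below. The median absolute log2 fold change of called genes was 0.50. A change of at least 2-fold was called in 1976 genes (15.0%), and of these 1481 (11.2%) were higher and 495 (3.76%) lower. Both Combo200 libraries lay above both IFN200 libraries in 5830 genes (44.2%) and below in 5405 (41.0%), and the groups overlapped in 1942 (14.7%). When the change was tested against 1.5-fold in place of none, 2588 genes were called.

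The largest rises by fold were mostly in IFNγ response genes that were near or at 0 in IFN200. Gm4841 had 0 and 0 counts in IFN200 and 50 and 61 in Combo200 and was at least 17.3-fold higher, against 3 counts per library, and Gbp10, with 0 and 0 counts in IFN200 and 43 and 54 in Combo200, was at least 15.1-fold higher. Gbp5 had 1 and 0 counts in IFN200 and 139 and 152 in Combo200, a ratio of 272-fold (95% interval of the ratio of counts 48.5 to 10800). Apol9a had 1 and 0 counts in IFN200 and 95 and 125 in Combo200, a ratio of 206-fold (95% interval of the ratio of counts 36.6 to 8170). The guanylate-binding protein genes Gbp4 and Gbp9, whose products act against intracellular pathogens, had ratios of 53.3-fold (95% interval of the ratio of counts 14.4 to 446) and 70.2-fold (95% interval of the ratio of counts 12.2 to 2810). Iigp1, an immunity-related GTPase gene with a few counts in IFN200, rose from 0.217 and 0.177 CPM to 18.1 and 18.6 CPM, or 93.2-fold, with a log2 change of 6.5 (SE 0.20, adjusted p = 6.2e-16). The only gene among these 8 outside the interferon families was Krt16, a keratin of stressed and wounded epithelium, with 2 and 3 counts in IFN200 and 176 and 159 in Combo200 and a ratio of 62.7-fold (95% interval of the ratio of counts 26.6 to 194). Gbp genes, like Apol9a and Apol9b, are near copies of each other, so their single values are uncertain where reads could fit several.

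The largest fall was that of Cps1 (chromosome 1, 67123026 to 67231259), the first enzyme of the urea cycle. It stood at 66.1 and 61.2 CPM in IFN200 and 1.48 and 1.51 CPM in Combo200, 42.6-fold lower and a log2 change of -5.41 (SE 0.13, adjusted p = 2.1e-17). Bhlha15, a transcription factor of secretory cells, fell from 4.86 and 3.67 CPM to 0.349 and 0.464 CPM, a log2 change of -3.36 (SE 0.29, adjusted p = 3.0e-09). Etv5 (chromosome 16, 22381309 to 22439719) and Etv4, ETS factors induced by ERK signalling, followed. Etv5 stood at 35.9 and 34.5 CPM in IFN200 and 4.71 and 4.41 CPM in Combo200, a log2 change of -2.95 (SE 0.087, adjusted p = 3.9e-16). Etv4 stood at 49.7 and 54.6 CPM in IFN200 and 8.16 and 7.73 CPM in Combo200, a log2 change of -2.72 (SE 0.090, adjusted p = 1.9e-15). The keratin genes Krt76 and Krt79, the ribosomal protein paralog Rpl22l1 and Plac8 had log2 fold changes of -2.59, -2.24, -2.31 and -2.24. These 8 genes were picked only from called genes whose groups did not overlap.

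In amount rather than fold, the largest rise in mean CPM was that of Fn1, which encodes fibronectin. It rose from 6384 and 5799 CPM to 11421 and 11301 CPM, a log2 change of 0.90 (SE 0.078, adjusted p = 3.4e-09). Next came Htra1, a secreted protease, Crispld2, a secreted protein, Flna, an actin crosslinker, and Pcolce, which aids procollagen processing, with log2 fold changes of 1.5, 1.1, 0.88 and 1.32. The largest fall in CPM was that of the elongation factor gene Eef1a1, which fell from 7930 and 7733 CPM to 3964 and 4125 CPM, a log2 change of -0.95 (SE 0.031, adjusted p = 1.4e-15). The other 4 were Eef2, also an elongation factor, the chaperone Hsp90ab1, the fatty acid desaturase Scd2 and lactate dehydrogenase Ldha, with log2 fold changes of -0.77, -0.88, -1.36 and -0.93.

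Of the 15 NF-κB subunits, inhibitors and kinases, all measured, 9 rose and 2 fell, against 36.5% and 33.5% of all genes, and their median log2 fold change was 0.52 against 0.02 for all genes. Relb, the partner of p52, stood at 3.56 and 3.58 CPM in IFN200 and 43.1 and 38.4 CPM in Combo200, 11.4-fold higher and a log2 change of 3.51 (SE 0.12, adjusted p = 1.7e-15). Its partner-encoding gene Nfkb2 is given above. Map3k14, the kinase of that arm, rose from 16.7 and 14.8 CPM to 45.6 and 43.0 CPM, a log2 change of 1.49 (SE 0.064, adjusted p = 9.3e-14). Of the other DNA-binding subunits, Rela and Rel rose by 0.52 and 0.45 on the log2 scale, and Nfkb1 stood at 125 and 123 CPM in IFN200 and 130.2 and 129.6 CPM in Combo200 and was not called (log2 fold change 0.065 (SE 0.037, adjusted p = 0.13)). The members that moved upward also include the genes that restrain the pathway and are themselves its targets. Nfkbie, which encodes IκBε, rose from 1.69 and 1.5 CPM to 15.0 and 14.3 CPM, a log2 change of 3.19 (SE 0.12, adjusted p = 1.7e-14). Nfkbia, which encodes IκBα, rose from 55.0 and 54.6 CPM to 205 and 205 CPM, a log2 change of 1.91 (SE 0.045, adjusted p = 1.8e-17). The deubiquitinase Tnfaip3 and the nuclear cofactor Bcl3 rose by 1.16 and 1.1. Nfkbib and Nfkbiz fell, with log2 fold changes of -0.30 and -0.32, the latter not called in DESeq2 (adjusted p = 0.052). The kinases Ikbkb and Ikbke and the adaptor Traf3 had 0.071, 0.15 and 0.045 and were not called.

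**Figure D2:**
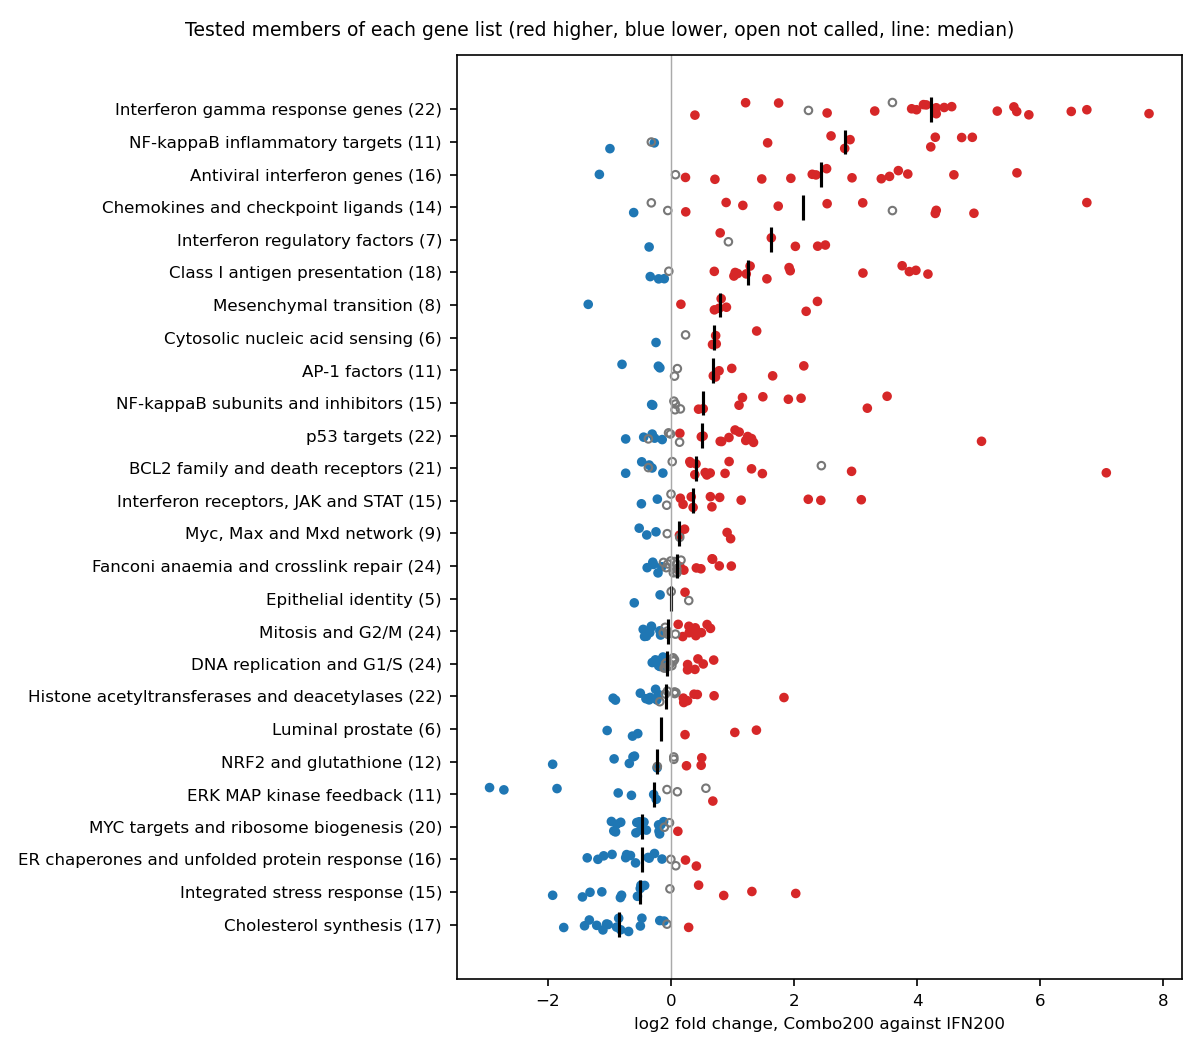
Log2 fold change of Combo200 against IFN200 (horizontal axis) for each tested member of 26 gene lists, one row per list with the number tested in parentheses, red for called higher, blue for called lower and open for not called, with a line at the median. The interferon γ response list has the highest median, 4.23, and the cholesterol synthesis list the lowest, -0.85, while the cell cycle lists sit near 0.

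Among 20 inflammatory genes known as NF-κB targets, 11 passed the filter, and of these 8 rose, 2 fell and 1 was not called. In 2 of the 11 both IFN200 libraries had 3 counts or fewer, and these passed through groups where they are high. Vcam1, a leukocyte adhesion molecule, rose from 0.217 and 0.0884 CPM to 4.97 and 4.48 CPM, a log2 change of 4.89 (SE 0.32, adjusted p = 4.9e-11). Icam1, the complement component C3 and the growth factor Csf1, 3 members picked after their values were seen, rose by 2.82, 4.22 and 2.91 on the log2 scale. Traf1, a signalling adaptor also picked so, had 3 and 2 counts in IFN200 and 64 and 84 in Combo200, a ratio of 27.7-fold (95% interval of the ratio of counts 11.6 to 86.5). Cxcl5, a neutrophil chemokine, fell from 13.6 and 13.8 CPM to 6.67 and 7.07 CPM, a log2 change of -0.99 (SE 0.095, adjusted p = 1.4e-08). The 9 members that did not pass the filter include Il6, Tnf, Ccl2 and Ccl20. The median of the 11 was 2.82, and 2.60 with members at or under 3 counts in both IFN200 libraries set against 3 counts.

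The chains that receive and relay IFNγ were also higher with Oxali. Of 15 genes for interferon receptors, JAK kinases, STATs and their regulators, 11 rose and 2 fell (median log2 fold change 0.36). Ifngr2, the signalling chain of the receptor, rose from 1.3 and 0.751 CPM to 5.28 and 4.44 CPM, a log2 change of 2.23 (SE 0.22, adjusted p = 1.9e-08). Ifngr1, the binding chain, and Jak2 rose by 0.79 and 0.66, and Jak1 by 0.19. Stat2, which joins Irf9 in the type I response, rose from 24.1 and 26.8 CPM to 55.4 and 56.6 CPM, a log2 change of 1.14 (SE 0.059, adjusted p = 1.5e-12). The negative regulators Socs1 and Usp18 rose as well. Socs1, which inhibits JAKs, rose from 0.564 and 0.972 CPM to 4.45 and 3.90 CPM, a log2 change of 2.43 (SE 0.22, adjusted p = 8.2e-09). Usp18, which removes ISG15 and blocks Ifnar2, rose from 0.651 and 0.530 CPM to 4.80 and 5.33 CPM, a log2 change of 3.09 (SE 0.22, adjusted p = 2.1e-10). The phosphatase gene Ptpn2, the type I receptor chain Ifnar2, Pias1 and Stat3 rose by 0.36, 0.64, 0.15 and 0.33. Ifnar1 and Socs3 fell, with -0.48 and -0.22, and Tyk2 and Ptpn11, with -0.0015 and -0.071, were not called. Without IFN200 replicate 2 the calls of Socs3 and Pias1 were lost (adjusted p = 0.162 and 0.0802), and so they were without Combo200 replicate 3 (0.0788 and 0.0648).

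Of 7 interferon regulatory factors tested of 8, 5 rose and 1 fell (median log2 fold change 1.63). Irf7, which drives type I interferon genes, rose from 0.955 and 1.41 CPM to 6.02 and 6.34 CPM, a log2 change of 2.38 (SE 0.18, adjusted p = 4.6e-10). Irf9, the DNA-binding part of the complex that holds Stat2, rose from 9.77 and 11.1 CPM to 40.6 and 44.1 CPM, a log2 change of 2.02 (SE 0.073, adjusted p = 7.5e-15). Irf8, known from myeloid cells, rose from 0.651 and 0.574 CPM to 2.05 and 1.78 CPM, a log2 change of 1.63 (SE 0.33, adjusted p = 1.9e-04). Irf2, which binds the same elements as Irf1, rose by 0.80. Irf3, the latent factor of nucleic acid sensing, fell with a log2 change of -0.36. Irf4 had 0.93 and was not called (adjusted p = 0.076), and Irf5 did not pass the filter.

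All 22 genes of the IFNγ response list passed the filter, and 20 rose and none fell. The 2 not called, Gbp8 and Cxcl9, had at most 3 counts in total in Combo200 and none in IFN200. In 9 of the 22 both IFN200 libraries had 3 counts or fewer, and these passed through groups where they are high. The median log2 fold change was 4.23, or 3.73 with such members set against 3 counts. Gbp2 stood at 3.30 and 2.25 CPM in IFN200 and 57.4 and 63.2 CPM in Combo200, a log2 change of 4.44 (SE 0.096, adjusted p = 5.7e-18). Of the immunity-related GTPases, which act on membranes around intracellular parasites, Igtp rose from 5.43 and 3.76 CPM to 76.8 and 81.1 CPM, Irgm2 from 3.65 and 4.29 CPM to 95.8 and 91.4 CPM and Tgtp2 from 0.564 and 0.398 CPM to 8.37 and 8.85 CPM. Their log2 fold changes were 4.10, 4.56 and 4.15, with the caution that Tgtp1 and Tgtp2, and the Irgm genes, resemble each other. Cxcl11, a T cell chemokine, had 0 and 0 counts in IFN200 and 8 and 21 in Combo200 and was at least 4.42-fold higher. The smallest rise was that of Ido1, a tryptophan-degrading enzyme, at 4.64 and 4.37 CPM in IFN200 and 5.84 and 5.95 CPM in Combo200, a log2 change of 0.39 (SE 0.12, adjusted p = 0.0079), which was lost without IFN200 replicate 2 (adjusted p = 0.0608).

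Of 22 antiviral genes of the type I interferon response, 16 passed the filter and 14 of them rose, with a median of 2.44 (1.69 with members near 0 set against 3 counts). In 4 of the 16 both IFN200 libraries had 3 counts or fewer, and these passed through groups where they are high. Zbp1, a sensor of Z-form nucleic acid, had 0 and 0 counts in IFN200 and 9 and 4 in Combo200 and was at least 2.08-fold higher. Xaf1 and Oasl2, picked after their values were seen, rose by 4.60 and 3.69. Dhx58 was the one called lower, at 0.912 and 0.663 CPM in IFN200 and 0.349 and 0.348 CPM in Combo200, a log2 change of -1.17 (SE 0.37, adjusted p = 0.0088). That call was lost without IFN200 replicate 1, Combo200 replicate 2 or Combo200 replicate 3 (adjusted p = 0.109, 0.0515 and 0.0576). Of the 6 tested genes of cytosolic nucleic acid sensing, 4 rose and 1 fell. Samhd1, a dNTP hydrolase, rose from 434 and 424 CPM to 1123 and 1126 CPM, a log2 change of 1.39 (SE 0.039, adjusted p = 1.5e-16), and the kinase gene Tbk1 fell with a log2 change of -0.24.

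In the class I antigen presentation list (18 genes, all tested), 14 rose and 3 fell, with a median log2 fold change of 1.25. The transactivator Nlrc5, which drives class I genes, rose from 0.694 and 0.398 CPM to 9.73 and 7.77 CPM, a log2 change of 3.98 (SE 0.23, adjusted p = 1.0e-11). The immunoproteasome subunits Psmb8, Psmb9 and Psmb10, which trim proteins into class I peptides, all rose. Psmb8 stood at 1.43 and 1.06 CPM in IFN200 and 22.2 and 23.0 CPM in Combo200 and Psmb9 at 2.56 and 2.83 CPM in IFN200 and 39.2 and 39.7 CPM in Combo200, with log2 fold changes of 4.17 and 3.87, and Psmb10 had 1.94. The proteasome activators Psme1 and Psme2 rose by 1.02 and 1.22. Tap1 (chromosome 17, 34187553 to 34197225), a subunit of the peptide transporter, stood at 2.65 and 3.14 CPM in IFN200 and 39.6 and 38.5 CPM in Combo200, 13.5-fold higher and a log2 change of 3.75 (SE 0.10, adjusted p = 8.9e-17). Tap2 rose from 7.86 and 7.42 CPM to 65.7 and 66.9 CPM, a log2 change of 3.12 (SE 0.072, adjusted p = 1.4e-17). Reads from the overlap of Psmb9 with Tap1 may have counted for either. The loading factors Tapbp and Tapbpl rose by 1.92 and 1.56, and the trimming peptidase Erap1 by 1.28.

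Of the presenting molecules, H2-K1 stood at 91.4 and 92.9 CPM in IFN200 and 186 and 193 CPM in Combo200, a log2 change of 1.04 (SE 0.046, adjusted p = 1.3e-13). H2-D1 stood at 255 and 259 CPM in IFN200 and 540.4 and 546 CPM in Combo200, a log2 change of 1.08 (SE 0.041, adjusted p = 1.3e-14), and reads of these 2 may be split with other H2 genes. B2m, the invariant light chain, stood at 809.7 and 779 CPM in IFN200 and 1274 and 1311 CPM in Combo200, a log2 change of 0.70 (SE 0.037, adjusted p = 1.7e-12). The members that fell were Canx, a chaperone of the ER, Pdia3, an ER disulfide isomerase, and Sec22b, a protein of vesicle traffic, with -0.11, -0.20 and -0.34. Calr, also an ER chaperone, had -0.037 and was not called.

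Chemokines and ligands of immune checkpoints passed the filter in 14 of 23 cases, and of the 14, 10 rose, 1 fell and 3 were not called (median 2.14, or 1.45 with members near 0 set against 3 counts). In 3 of the 14 both IFN200 libraries had 3 counts or fewer, and these passed through groups where they are high. Several are named here after their values were seen. Ccl9, a chemokine for myeloid cells, rose from 1.17 and 1.68 CPM to 43.8 and 42.8 CPM, a log2 change of 4.92 (SE 0.11, adjusted p = 1.0e-17). Cd274, which encodes PD-L1, rose from 1.48 and 1.37 CPM to 8.20 and 8.35 CPM, a log2 change of 2.54 (SE 0.18, adjusted p = 2.4e-10). Cx3cl1 and the costimulatory receptor Tnfrsf9 rose by 1.74 and 3.11. Tnfsf9, the ligand of Tnfrsf9, was the one that fell, at 7.94 and 6.54 CPM in IFN200 and 4.71 and 4.79 CPM in Combo200, a log2 change of -0.61 (SE 0.17, adjusted p = 0.0039), and it was lost without IFN200 replicate 1 (adjusted p = 0.069).

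Of 22 tested p53 targets, 13 rose and 5 fell (median 0.51). Cdkn1a, the p21 cell cycle inhibitor, rose from 26.9 and 25.6 CPM to 50.4 and 50.5 CPM, and Mdm2, the ligase that degrades p53, from 65.9 and 61.0 CPM to 111 and 110.1 CPM; both were picked after their values were seen. Their log2 fold changes were 0.94 (SE 0.056, adjusted p = 1.1e-11) and 0.80 (SE 0.046, adjusted p = 8.4e-12). Fas, a death receptor, had 2 and 0 counts in IFN200 and 42 and 37 in Combo200, a ratio of 37.0-fold (95% interval of the ratio of counts 9.90 to 310.0). Bax, the pore-forming BCL2 family member, fell from 73.8 and 77.6 CPM to 45.5 and 45.3 CPM, a log2 change of -0.74 (SE 0.046, adjusted p = 2.1e-11). Of 21 tested genes of the BCL2 family and death receptors, 13 rose and 5 fell, with a median of 0.41. In 2 of the 21 both IFN200 libraries had 3 counts or fewer, and these passed through groups where they are high. Bik, a BH3-only gene, had 0 and 0 counts in IFN200 and 22 and 14 in Combo200 and was at least 5.71-fold higher, and it sat at the low end of what the depth can measure. Of 11 tested AP-1 genes, 6 rose and 3 fell. Batf3, which pairs with Jun proteins, rose from 0.304 and 0.398 CPM to 1.83 and 1.35 CPM, a log2 change of 2.16 (SE 0.34, adjusted p = 1.3e-05), and Mafg fell with a log2 change of -0.80.

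Ddit3 moved against most of its own list. Of 15 tested genes of the integrated stress response, 4 rose and 10 fell, with a median log2 fold change of -0.50, and their summed level was 2900 and 2890 CPM in IFN200 and 1580 and 1620 CPM in Combo200. Beside Ddit3, those that rose were Cebpb, a C/EBP factor that can pair with CHOP, Atf3, and Ppp1r15a, which restores translation, with 1.31, 0.86 and 0.45. Atf4 fell from 367 and 383 CPM to 255 and 259 CPM, a log2 change of -0.55 (SE 0.036, adjusted p = 6.6e-11). Slc7a11, the cystine transporter, fell from 157 and 154 CPM to 41.0 and 41.2 CPM, a log2 change of -1.92 (SE 0.058, adjusted p = 5.0e-16). Asns, asparagine synthetase, fell from 353 and 337 CPM to 133 and 143 CPM, a log2 change of -1.32 (SE 0.043, adjusted p = 1.5e-15). The serine and one-carbon genes Psat1, Phgdh, Shmt2 and Mthfd2 fell too, with -1.44, -0.49, -1.13 and -0.82. So did Chac1, which degrades glutathione, Trib3 and Ddit4, with -0.80, -0.50 and -0.43, and Nupr1, at -0.019, was not called.

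Lists of biosynthesis were lower too. Of 16 genes of ER chaperones and the unfolded protein response, 2 rose and 12 fell (median -0.48). Xbp1, its transcription factor, fell from 135 and 138 CPM to 52.2 and 53.9 CPM, a log2 change of -1.36 (SE 0.044, adjusted p = 1.4e-15), whereas Ern1, the sensor that splices Xbp1, rose by 0.41. Of 17 genes of cholesterol synthesis, 15 fell and 1 rose, and 7 of the 15 fell at least 2-fold, against 3.76% of all genes (median -0.85). Insig1, the sterol sensor that is also a target of the pathway, fell from 25.6 and 24.8 CPM to 8.03 and 7.07 CPM, a log2 change of -1.74 (SE 0.081, adjusted p = 3.0e-13), and Pmvk, phosphomevalonate kinase, rose by 0.29. Srebf2, the factor that drives these genes, was picked after its value was seen and fell from 228 and 238 CPM to 108 and 109 CPM, a log2 change of -1.11 (SE 0.038, adjusted p = 3.0e-15). Of 20 MYC targets and ribosome biogenesis genes, 17 fell and 1 rose (median -0.47), from Bop1 at -0.97 to Polr1a at 0.11, the last lost whichever of the 4 libraries was left out (adjusted p = 0.0706 to 0.235). Myc itself, at the levels given above for the mouse gene, with reads of the transgene not told apart, had a log2 change of 0.14 (SE 0.043, adjusted p = 0.0087). Of 9 tested genes of the Myc, Max and Mxd network 4 rose, led by the Myc antagonist Mxd1 at 0.97, and 3 fell, led by Mga at -0.52. Of 11 tested ERK feedback genes, which read out ERK activity, 7 fell and 1, Phlda1 at 0.68, rose, with Etv5 and Etv4 at the bottom. Of 12 tested NRF2 and glutathione genes 3 rose and 6 fell, from Slc7a11 to Gclc at 0.50.

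The cell cycle and repair lists moved little. Of 24 genes of DNA replication and G1/S, 6 rose and 8 fell (median -0.06), between Ccne2 at -0.31 and Cdc45 at 0.69. Of 24 genes of mitosis and G2/M, 10 rose and 8 fell (median -0.05), between Mki67 at -0.45 and the mitotic factor Foxm1 at 0.64. Of 24 Fanconi anaemia and crosslink repair genes, 9 rose and 5 fell (median 0.09), between Fancb at -0.39 and Fancf at 0.98, the last lost without IFN200 replicate 1 or Combo200 replicate 3 (adjusted p = 0.0783 and 0.122). None of these 72 list entries changed at least 2-fold. Of 22 tested histone acetyltransferases and deacetylases 7 rose and 9 fell (median -0.08). Hdac11 rose from 1.69 and 1.55 CPM to 5.37 and 6.18 CPM, a log2 change of 1.83 (SE 0.19, adjusted p = 4.1e-08), and Hdac10 fell with a log2 change of -0.94. The acetyltransferase Ep300, picked after its value was seen, had -0.20 (SE 0.072, adjusted p = 0.017).

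Lineage genes were uneven. Of 6 tested genes of the luminal prostate list 3 rose and 3 fell (median -0.16). Foxa1, a pioneer factor, fell from 427 and 430.5 CPM to 206 and 212 CPM, a log2 change of -1.04 (SE 0.042, adjusted p = 3.2e-14), and Acpp, prostatic acid phosphatase, rose by 1.39. Of 5 tested epithelial genes 1 rose and 2 fell, with Krt19 lowest at -0.60 and Cldn4 highest at 0.29 and not called. Of 15 mesenchymal genes 8 passed the filter, and of these 7 rose and 1 fell (median 0.80). Snai1, a repressor of epithelial genes, had 2 and 3 counts in IFN200 and 7 and 22 in Combo200, a ratio of 5.43-fold (95% interval of the ratio of counts 2.08 to 18.0). Its call (adjusted p = 0.0083) was lost without IFN200 replicate 1 or Combo200 replicate 3 (adjusted p = 0.0823 and 0.246). The integrin Itgb3 fell from 189 and 189 CPM to 72.9 and 75.5 CPM, a log2 change of -1.35 (SE 0.046, adjusted p = 2.9e-15).

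Markers of other cells were read beside these results. The summed level of 10 T cell markers was 0.79 and 0.339 CPM in IFN200 and 2.55 and 2.6 CPM in Combo200, with Cd3d, Cd8a and Cd8b1 at 0 in all 4. That of 10 macrophage markers was 0.873 and 0.509 CPM and 2.37 and 2.0 CPM, with Adgre1, Itgam, C1qa and C1qb at 0 in all 4, and Csf1r, the receptor of Csf1, had 0 and 0 counts in IFN200 and 19 and 8 in Combo200. Both lists were higher in Combo200, in which Lck and Trac rose by 2.08 and 1.88, Trac with adjusted p = 0.0576 without Combo200 replicate 3. The fibroblast and endothelial list went from 28.8 and 28.6 CPM to 38.8 and 40.4 CPM, most of it Pdgfra and Pdgfrb. The heart muscle list stood at 8.73 CPM in IFN200 replicate 1 and 1.1 in replicate 2, against 5.23 and 4.4 in Combo200. IFN200 replicate 1 held 63 counts of Actc1 and 28 of Myh6, and replicate 2 none of either. Without IFN200 replicate 1, 8405 genes were called, and the part of such RNA in the results was not tested.

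The same drug effect was measured without IFNγ in 4 libraries that the comparison does not use, Oxali against Ctrl, in which 8911 genes (67.6%) were called. Of the 9217 genes called with IFN200, 7954 (86.3%) were also called there, which is 89.3% of the genes called there, and 7937 of the 7954 moved in the same direction. Across 13177 genes, which are not independent replicates, the log2 fold changes correlated at r = 0.86 (Spearman 0.90). The rises of at least 2-fold overlapped in 1154 genes (77.9% of those with IFN200 and 82.7% of those without), and the falls in 277 (56.0% and 65.3%), at a background of 10.6% and 3.22% of all genes without IFNγ. Cps1, Etv5 and Relb had log2 fold changes of -5.08, -2.67 and 3.00 without IFNγ, and -5.41, -2.95 and 3.51 with it. The test of the difference gave adjusted p = 0.76, 0.53 and 0.40. For Ddit3 the log2 fold changes differed by 0.12 (SE 0.18, adjusted p = 0.89) and for Nfkb2 by 0.13 (SE 0.064, adjusted p = 0.51), and neither difference was called.

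The drug effect itself differed with IFN200 present in 92 genes (0.698%), more positive with it in 74 (0.562%) and more negative in 18 (0.137%). At an unadjusted p under 0.05 there were 1304 genes (9.9%). Irf1 was among the 74: its log2 fold change was 1.33 without IFNγ and 2.51 with it, a difference of 1.17 (SE 0.069, adjusted p = 3.6e-09). Gbp2 and Igtp had differences of 2.74 (SE 0.34, adjusted p = 1.3e-04) and 2.7 (SE 0.24, adjusted p = 1.1e-06). Gbp3 and Gm12250, at 2.47 and 4.26, were called with all 8 libraries, but Gbp3 was lost without Ctrl replicate 1 or 2 (adjusted p = 0.0524 and 0.456) and Gm12250 without Ctrl replicate 1 (adjusted p = 0.222). In the class I list, 11 of 18 had a more positive drug effect with IFN200, against 0.562% of all genes. Tap1, at 1.00 and 1.17 CPM in Ctrl and 4.42 and 5.87 CPM in Oxali, had a difference of 1.52 (SE 0.29, adjusted p = 0.013), and Psmb10 of 1.18, Tapbpl of 0.90, H2-K1 of 0.81 and B2m of 0.39. Psmb8, Psmb9 and Nlrc5, with 0.28, 0.42 and 2.91, were not called (adjusted p = 0.93, 0.83 and 0.58). Of the IFNγ response list 7 of 22 were more positive, of the interferon regulatory factors Irf1 and Irf9 (difference 1.24), and of the receptor and STAT list Stat3. Ido1 fell without IFNγ, with a log2 fold change of -1.39, and rose with it, a difference of 1.78 (SE 0.22, adjusted p = 1.3e-04). In the NF-κB subunit, integrated stress response, p53, cholesterol and cell cycle lists no gene had a called difference, at 0.698% for all genes. ISRE letters were in 21.7% of the promoters of the 60 more positive genes that have one, NF-κB letters in 11.7%, GAS letters in 13.3%, AP-1 letters in 10.0% and E-box letters in 5.0%, with no test.

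**Figure D3:**
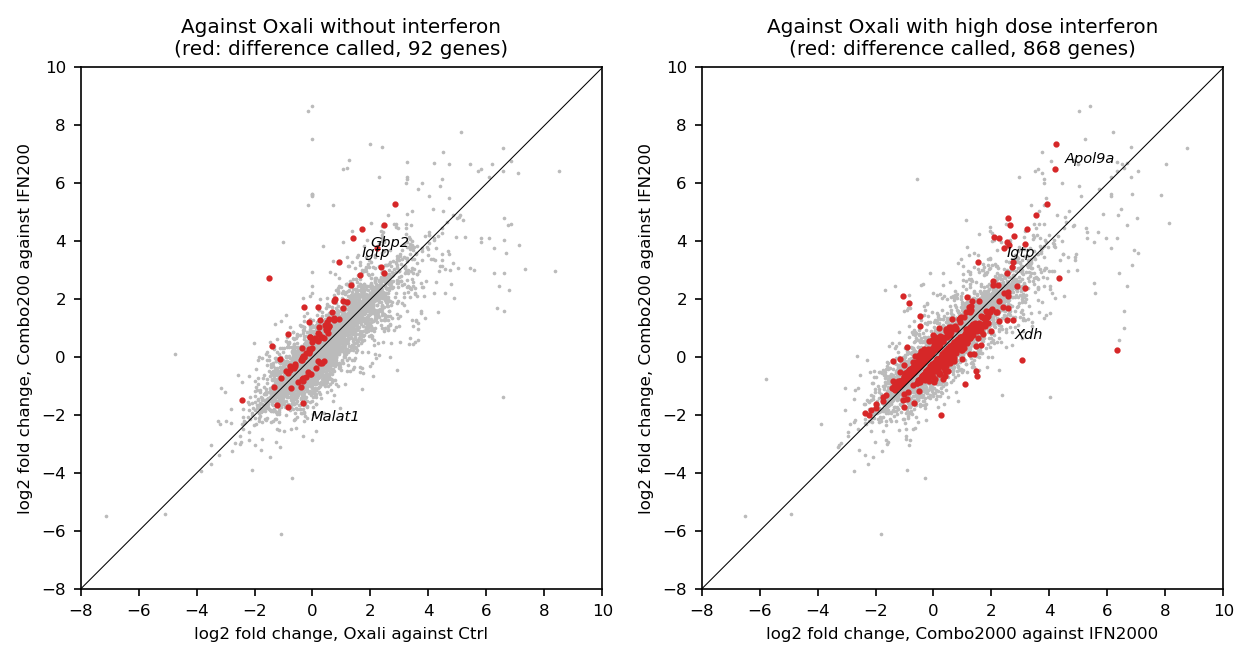
Log2 fold change of Combo200 against IFN200 (vertical axis) for each of 13177 genes beside that of Oxali against Ctrl (left) and of Combo2000 against IFN2000 (right), with the line of equal change and in red the genes whose difference was called. The red genes number 92 on the left and 868 on the right, with Gbp2 and Igtp above the line on the left and Malat1 below it.

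The 18 genes with a more negative drug effect were led by Malat1, a nuclear long noncoding RNA. It stood at 311 and 308 CPM in IFN200 and 121 and 88.9 CPM in Combo200 and at 281 and 207 CPM in Ctrl and 193 and 192 CPM in Oxali, a difference of -1.22 (SE 0.18, adjusted p = 6.8e-04). Spaca6, Tspan1, mt-Cytb and mt-Nd6 followed with -0.84, -0.63, -0.54 and -0.53. The last 4 calls were lost without Combo200 replicate 3, with differences of -0.67, -0.63, -0.50 and -0.52 (adjusted p = 0.205, 0.173, 0.173 and 0.173), and without Ctrl replicate 2 (adjusted p = 0.123, 0.134, 0.131 and 0.159). With all libraries in DESeq2 they had -0.84, -0.63, -0.55 and -0.53 and were not called either (adjusted p = 0.054, 0.391, 0.0765 and 0.0765). The mitochondrially encoded share of counts was 0.963% and 0.9723% in IFN200, 0.7498% and 0.7034% in Combo200, 0.7687% and 0.7691% in Ctrl and 0.7831% and 0.9172% in Oxali. That share holds mt-Cytb and mt-Nd6, so it is not a measure apart from them. Of the 11 mitochondrially encoded genes tested, 6 had a more negative drug effect. Any part of the share in the other calls was not tested. Without IFN200 replicate 2 the number of called differences kept within 1.5 times 92. The count of 92 fell to 36 and 35 without Ctrl replicate 1 or 2, 38 without IFN200 replicate 1, 45 without Oxali replicate 2, 61 without Combo200 replicate 2 and 33 without Combo200 replicate 3, and it was 135 without Oxali replicate 1.

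With the 10-fold higher IFNγ dose, Combo2000 against IFN2000, 9522 genes (72.3%) were called, of which 8085 were also called with IFN200 (87.7% of the latter and 84.9% of the former), 8041 in the same direction. The difference between the drug effects at the 2 doses was called in 868 genes (6.59%), more positive at the high dose in 448 (3.4%) and more negative in 420 (3.19%). At an unadjusted p under 0.05 there were 3026 genes (23.0%). In several IFNγ response genes the fold with Oxali was smaller at the high dose, where the level without Oxali was already higher. Iigp1 stood at 5.18 and 5.27 CPM in IFN2000 and 91.0 and 99.4 CPM in Combo2000, a difference of -2.32 (SE 0.36, adjusted p = 0.0011). Tgtp2, Irgm2 and Igtp had differences of -2.05, -1.91 and -1.85, and Apol9a of -3.14 (SE 0.84, adjusted p = 0.032). The call of Apol9a was lost without IFN200 replicate 1 or 2, IFN2000 replicate 2, Combo200 replicate 3 or Combo2000 replicate 2, at an adjusted p of up to 0.165. Tap1 stood at 14.8 and 13.9 CPM in IFN2000 and 79.4 and 76.8 CPM in Combo2000, a difference of -1.31 (SE 0.14, adjusted p = 2.8e-05). Of the class I list 9 of 18 were more negative and 1 more positive, and of the IFNγ response list 8 of 22 were more negative, against 3.19% of all genes. Of the integrated stress response list 9 of 15 were more negative, among them Atf4 with -0.28 and Asns with -0.32.

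Among the markers, Irf1 stood at 94.6 and 93.9 CPM in IFN2000 and 432 and 445 CPM in Combo2000, and its drug effect differed by -0.29 (SE 0.062, adjusted p = 0.011), a call lost without IFN200 replicate 2, Combo200 replicate 2 or 3, or Combo2000 replicate 2 (adjusted p = 0.058, 0.0634, 0.0676 and 0.0694). Ddit3 and Nfkb2, at -0.014 and 0.0078, were not called (adjusted p = 0.97 and 0.96). More positive were Gm12250, Col6a3, a collagen chain, Xdh, xanthine dehydrogenase, Klhl24 and Gm19221, with 1.59, 1.27, 1.25, 1.13 and 1.07. Those of Gm12250, Col6a3 and Gm19221 were lost without IFN200 replicate 1, among other libraries (adjusted p = 0.207, 0.228 and 0.134). This difference moved with transcript length: across 13024 annotated genes its Spearman correlation with summed exon length was 0.28, against 0.04 for the change from IFN200 to Combo200 itself. After a correction for exon length, chosen after seeing the data, 729 genes were called. The count of 868 also rested on single libraries, though it kept within 1.5 times without IFN200 replicate 2 or Combo2000 replicate 3. It was 110 without IFN200 replicate 1, 282 and 133 without Combo200 replicate 2 or 3, 309 without IFN2000 replicate 2, 1929 without IFN2000 replicate 3 and 201 without Combo2000 replicate 2.

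The genes that fell at least 2-fold with Oxali were short ones more often than long ones. With genes cut into 5 equal bins of genomic span, 8.83% of the shortest bin fell at least 2-fold and 1.46% of the longest, while rises of that size made up 10.5% and 11.1%. The median log2 fold change went from -0.12 in the shortest bin to 0.13 in the longest. By summed exon length the falls made up 7.02% of the shortest bin and 1.65% of the longest, and the rises 13.3% and 7.37%. By mean level, 57.0% of the bin with the highest level were called lower and 27.7% higher, against 13.2% and 30.5% in the bin with the lowest level. Counts scale with length and level, which also sets how small a change can be called, and this was not separated here. Of the 495 genes called at least 2-fold lower, 56 were processed pseudogenes and 13 were snoRNA genes. The bins were not drawn without them.

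**Figure D4:**
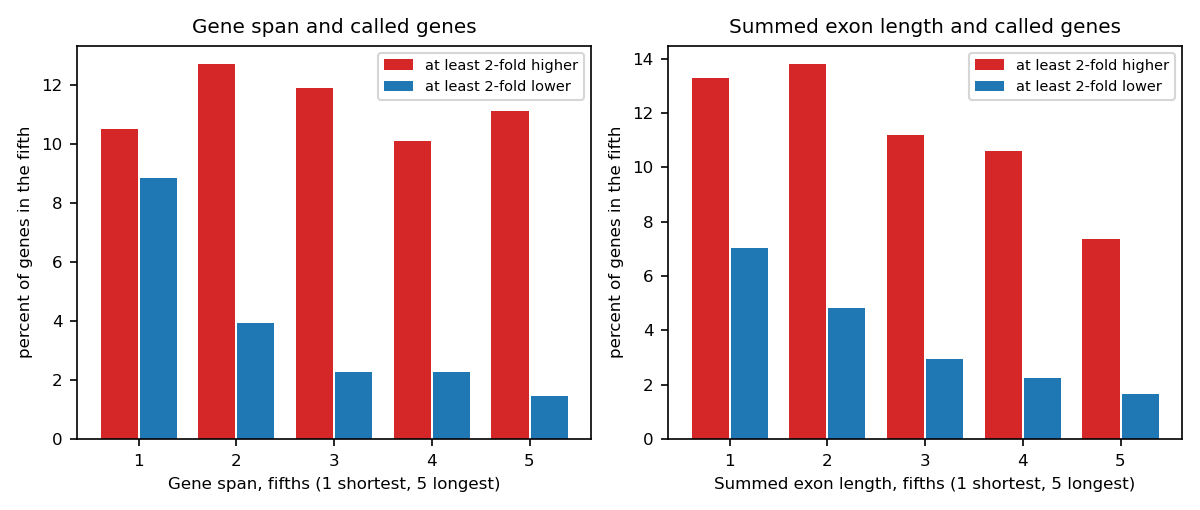
Percent of genes called at least 2-fold higher (red) and at least 2-fold lower (blue) in Combo200 against IFN200, by 5 equal bins of genomic span (left) and of summed exon length (right), with 2604 to 2606 genes in each bin and bars starting at 0. The share that fell drops from 8.83% to 1.46% with span and from 7.02% to 1.65% with exon length.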

How the data were processed

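RNA of Myc-CaP cells was sequenced from poly(A) libraries of a stranded kit. What the authors deposited is a table of raw counts, 1 row per gene symbol. By the methods of the study, STAR aligned the reads to GRCm38 and featureCounts counted them on GENCODE gene models, and the submitters' processing notes name STAR 2.7.3a and RSEM 1.3.0 without their roles. The strand setting of the counting was not given in the sources used here, so overlapping genes may share reads. The doses of IFNγ are as labelled, with no volume.

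Of 55216 genes in the table, 28300 were at 0 throughout. Genes were filtered with filterByExpr (minimum count 10, minimum total 15), normalised by TMM and fitted in edgeR 4.0.16 (R 4.3.3), whose quasi-likelihood test was used, with all 12 libraries and 6 group means in a single fit. Calls were made at a Benjamini-Hochberg adjusted p under 0.05 over the 13177 genes tested. SE was taken as the absolute log2 value over the root of the F statistic. CPM are counts scaled to a common library total. Oxali effects at IFN200, at IFN2000 and without IFNγ, and the 2 differences between them and that at IFN200, were tested. Exact permutation over 2 against 2 libraries cannot go below p = 0.333, and calls therefore depend on a spread pooled over genes and groups (common biological coefficient of variation 0.035). On simulated counts, 88.1% of 1.5-fold and 98.5% of 2-fold changes were recovered in Combo200 against IFN200, with 11 false calls over 13177 genes and 12 in the difference from Oxali without IFNγ. There 67 genes above a floor on counts were changed by each of these folds. Unchanged genes had the same mean in all 12 libraries, with the spread that the fit had estimated. In the data 69.9% of genes were called and the spread differed between groups, so these figures do not carry over to the data.

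Replicates were separate libraries, as the counts of partners differed by 2.57 (IFN200) and 1.71 (Combo200) times sampling noise in chi-square per degree of freedom. The same value was 1.80 in Ctrl, 9.15 in Oxali, 5.44 in IFN2000 and 3.48 in Combo2000. The tests of the differences between drug effects use these groups under the pooled spread, and a spread that differs between groups was not modelled. Ratios of genes with few counts carry exact intervals of the ratio of counts. Exons, spans and positions were taken from GENCODE vM21 on the same build, which matched 13024 (98.8%) of the genes tested by symbol, and promoters (250 bases before to 50 after the start listed first for the symbol) from RefSeq GRCm38.p6.

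The comparison, the gene lists and the motifs were chosen with earlier results of these data known, so lists are described by counts and medians and not tested. Genes named are the 3 markers, the 8 largest rises and falls by fold with a mean log2 CPM of 1 or more and groups that do not overlap, the 5 largest by CPM, the 5 largest differences each way, the regulators and extremes of each list, and others said to be chosen after their values were seen. Alternatives were DESeq2 1.42.0, DESeq2 size factors, upper-quartile scaling, no filter, a mean of at least 50 counts, a test against 1.5-fold, only the groups compared, a replicate block and leaving out each library, and, added after seeing the data, a correction for exon length. No column was left unused. Some genes of the lists are not reported here and were left out of list counts and medians.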

Additional observations from a re-analysis of the deposited data

Results flagged for a closer look

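The effect of Oxali differed between cells with IFN200 and cells without IFNγ in 92 genes by a test of the difference itself. On the log2 scale the differences of the genes named were 1.17 for Irf1, 2.74 for Gbp2, 2.7 for Igtp, 2.47 for Gbp3 and 4.26 for Gm12250, all more positive with IFN200. More negative with IFN200 were Malat1 at -1.22, Spaca6 at -0.84, Tspan1 at -0.63, mt-Cytb at -0.54 and mt-Nd6 at -0.53.

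The effect also differed between the 2 doses of IFNγ, by the same kind of test, in 868 genes. It was more negative at the high dose in Irf1 by -0.29, Apol9a by -3.14, Iigp1 by -2.32, Tgtp2 by -2.05, Irgm2 by -1.91 and Igtp by -1.85. It was more positive in Gm12250 at 1.59, Col6a3 at 1.27, Xdh at 1.25, Klhl24 at 1.13 and Gm19221 at 1.07. For the genes named in this section, calls that rest on single libraries are given in the paragraphs on these comparisons. The other called differences, those of Tap1 and the rest of the class I list among them, were not followed gene by gene with a library left out.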

How the results depend on the processing

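The call counts for Oxali at IFN200 kept within 1.5 times the reported 9217 under every alternative (7658 with DESeq2, 8534 with the replicate block, 9321 with exon length corrected, 8247 to 8405 without one library) but 1, the test against 1.5-fold, with 2588. The count at 2-fold fell to 984 under the filter of 50 counts on average, and kept within 1.5 times otherwise, as did the counts without IFNγ and at IFN2000 under each alternative run for them. The 92 differences from Oxali without IFNγ became 262 with no filter, 172 with only the groups compared, 48 with the replicate block and 33 to 135 without one library, and their share more positive, 80.4%, became 70.4% with upper-quartile scaling and 92.6% with DESeq2 (68 genes). The 868 differences between doses became 1320 with no filter, 521 with DESeq2, 236 with the replicate block and 110 to 1929 without one library. The causes were not tested. Deviations of same-numbered libraries from their group means correlated at -0.05 to 0.05 over 21 pairs. In a group of 2 libraries the deviations mirror each other, so several of these pairs repeat each other. The deviations also hold counting noise, so a correlation near 0 cannot show that equal numbers share nothing. With the replicate block the calls of Dhx58, Fancf, Polr1a, Tnfsf9 and Snai1 at IFN200 were lost. With DESeq2 the calls of Nfkbiz, Pias1, Ido1, Dhx58, Fancf and Polr1a at IFN200 were also lost (adjusted p = 0.052 to 0.136). A gene needs counts: 3 counts were 0.111 to 0.167 CPM, and a lone library left in a group was assumed to vary like the others.

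Median log2 fold changes of lists that moved by more than the replicate spread were as follows. p53 targets had 0.54 with upper-quartile scaling, 0.48 with exon length corrected and 0.45 to 0.56 without one library. Integrated stress response had -0.54 to -0.48 without one library. NF-κB subunits and inhibitors had 0.55 with upper-quartile scaling, 0.49 with exon length corrected and 0.48 to 0.54 without one library. NF-κB inflammatory targets had 2.34 with no filter, 2.72 with the 50-count filter and 2.69 to 2.89 without one library. Interferon regulatory factors had 1.82 with no filter, 1.94 with the replicate block and 1.53 to 1.72 without one library. Interferon receptors, JAK and STAT had 0.39 with upper-quartile scaling, 0.41 with the replicate block, 0.33 with exon length corrected and 0.33 to 0.44 without one library. IFNγ response genes had 4.26 with upper-quartile scaling, 4.32 with the 50-count filter, 4.32 with DESeq2, 4.30 with only the groups compared, 4.30 with the replicate block, 4.19 with exon length corrected and 4.15 to 4.42 without one library. Antiviral interferon genes had 2.47 with upper-quartile scaling, 2.52 with no filter, 2.01 with the 50-count filter, 2.47 with DESeq2, 2.12 with only the groups compared, 2.41 with the replicate block and 2.32 to 2.60 without one library. Cytosolic nucleic acid sensing had 0.58 to 0.72 without one library. Mitosis and G2/M had -0.020 with upper-quartile scaling and -0.073 with exon length corrected. Fanconi anaemia and crosslink repair had 0.12 with upper-quartile scaling, 0.047 with the replicate block and 0.046 to 0.11 without one library. Myc, Max and Mxd network had 0.17 with upper-quartile scaling, 0.034 with no filter, 0.095 with the replicate block, 0.10 with exon length corrected and 0.030 to 0.14 without one library. AP-1 factors had 0.39 with no filter, 0.41 with the 50-count filter and 0.63 to 0.71 without one library. Luminal prostate had -0.27 with no filter, -0.53 with the 50-count filter and -0.21 to -0.12 without one library. BCL2 family and death receptors had 0.44 with upper-quartile scaling, 0.55 with no filter, 0.36 with the 50-count filter, 0.37 with exon length corrected and 0.43 to 0.46 without one library. Histone acetyltransferases and deacetylases had -0.045 with upper-quartile scaling and -0.11 with the replicate block. Cholesterol synthesis had -0.80 with the replicate block, -0.89 with exon length corrected and -0.89 to -0.83 without one library. NRF2 and glutathione had -0.19 with upper-quartile scaling, -0.25 with the replicate block and -0.25 to -0.22 without one library. Chemokines and checkpoint ligands had 1.55 with no filter, 1.75 with the 50-count filter and 1.45 with only the groups compared. Mesenchymal transition had 0.75 with the 50-count filter and 0.83 with the replicate block. The following single values, none of them called with all libraries, turned sign under the settings given. mt-Nd6 had 0.047 with exon length corrected. Col6a3 had -0.031 with the replicate block and -0.099 to 0.30 without one library. Nupr1 had 0.012 with upper-quartile scaling and -0.070 to 0.012 without one library. Tyk2 had 0.030 with upper-quartile scaling, 0.0098 with the 50-count filter, 0.048 with the replicate block and -0.093 to 0.074 without one library. Pdgfrb had -0.082 with the replicate block and -0.044 to 0.072 without one library. Myh7 had -2.36 to 3.31 without one library. The dose difference of Ddit3 was -0.25 to 0.26 without one library. The dose difference of Nfkb2 was -1.4e-05 with DESeq2 size factors, -0.0026 with upper-quartile scaling, -8.5e-05 with DESeq2, -0.022 with the replicate block and -0.055 to 0.064 without one library.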

Other observations

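Gene families outside the lists were read after the data had been seen and are given as values, without a test over a family. Of 9 laminin genes tested, which encode chains of basement membrane, 8 rose with Oxali at IFN200 and 1 fell, with a median log2 fold change of 1.54, against 36.5% higher among all genes. Lamb3 rose from 13.2 and 12.7 CPM to 179.8 and 182 CPM, a log2 change of 3.81 (SE 0.051, adjusted p = 8.2e-21), and Lamb2 from 137 and 147 CPM to 685 and 683 CPM, a log2 change of 2.26 (SE 0.045, adjusted p = 1.9e-18). Lama3 and Lamc3 had 2.07 and 2.63. Without IFNγ the median of the 9 was 1.29. Of 16 integrin genes, their receptors among them, 9 rose and 4 fell (median 0.61). The 20 keratin genes tested split, with 10 higher and 8 lower. Krt14, a basal keratin, had 1.64, while Krt4, Krt13 and Krt78, keratins of stratified mucosa, had -1.77, -1.82 and -1.91. Krt4 fell from 573 and 602 CPM to 171 and 174 CPM.

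Of 79 cytosolic ribosomal protein genes 70 fell and 1 rose (median -0.48, and -0.61 without IFNγ), with the caution that their processed pseudogenes can take their reads. Of 501 processed pseudogenes tested, 119 fell and 26 rose (median -0.41). Of 37 snoRNA genes, whose short transcripts a poly(A) library hardly captures, 17 fell and none rose (median -0.96). Of 11 mitochondrially encoded genes 8 fell and 1 rose (median -0.50), while the median was 0.13 without IFNγ and 0.18 at the high dose.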
